A study of Mus musculus with 4 samples.

Results

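The epithelium of the submandibular gland was compared with that of the parotid gland in 4946 epithelial cells, of 15351 cell barcodes in the series. The cells came from the 2 epithelium libraries. A barcode was kept when it held at least 500 genes, between 1% and 10% mitochondrial UMIs (unique molecular identifiers, each marking 1 captured RNA molecule), at least 1 UMI of Epcam, an epithelial adhesion molecule, and no UMI of the mesenchymal genes Pdgfra and Col3a1. This left 3475 submandibular cells and 1471 parotid cells. Since the cells were chosen by their Epcam, Pdgfra and Col3a1 UMIs, the levels of these genes are no result.

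The glands were taken from ICR mouse embryos on embryonic day 12, about 10 of each kind, and the labels give no genotype or treatment that sets the groups apart. Epithelium was parted from mesenchyme with Dispase II and made into single cells with a cold-active bacterial protease, Accutase and Accumax. Each of the 4 tissues gave 1 droplet library of pooled glands, so no difference between glands has a replicate, no test between them was possible, and no p-value is given. Intervals below are 95% counting intervals, which cover counting error only.

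Salivary glands arise as buds of oral epithelium that push into the surrounding mesenchyme, branch into end buds and form ducts behind them. Sox10 and Sox9 mark the end bud lineage, while Krt5 and Krt14 mark basal and stratified epithelium. Transcription factors of the forkhead, LIM-homeobox and Iroquois (Irx) families pattern the oral region, and FGF, WNT, hedgehog and ectodysplasin signals between epithelium and mesenchyme drive bud growth.

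Levels are given as CPM, the UMIs of a gene summed over the gated cells of a library, per 1000000 UMIs of those cells. Where a pair of levels is given, the submandibular value comes first. The submandibular cells held 37344868 UMIs (median 10006 a cell) and the parotid cells 11503419 (median 7339 a cell), so parotid values carry the wider intervals. The 19 epithelial marker genes summed to 2145 CPM in submandibular and 1752 CPM in parotid cells, against 26.8 and 28.1 CPM in the mesenchymal cells of the 2 mesenchyme libraries. The 14 mesenchymal markers not used by the gate summed to 41.9 CPM in submandibular and 150 CPM in parotid cells, with none at 0 in either, and to 2988 and 4129 CPM in mesenchymal cells. Of the 3 mesenchymal markers measured in epithelial cells, Dcn (0.187 and 35.8 CPM) and Vim (26.0 and 79.1 CPM) were at least 2-fold higher in parotid. Erythroid markers summed to 5.94 and 22.6 CPM. Of 31 genes of S and G2/M phase, 30 lay within 1.5-fold between the glands, as did 87.3% of all measured genes.

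The 2 libraries differed in cell makeup. Sox10 was seen in 25.8% of submandibular and 12.5% of parotid cells, and after thinning each cell to 3000 UMIs in 8.49% and 5.96% (mesenchymal cells, unthinned: 1.51% and 0.18%, median depths 5423 and 5648 UMIs). Krt5 was seen in 14.9% of submandibular and 69.3% of parotid cells (thinned, 8.46% and 51.1%; mesenchymal cells, unthinned, 0 of 3851 cells in submandibular, which allows up to 0.0779% of cells with a UMI, and 0.18% in parotid). A further list of 20 periderm and stratified ectoderm markers summed to 2359 CPM in submandibular and 4731 CPM in parotid cells, and 7 of its 12 measured members were at least 2-fold higher in parotid (2.85% of all measured genes were), Krt14 (156 and 1012 CPM) among them. Main values are therefore also given within cells holding a Sox10 UMI, cells with Krt5 but no Sox10 UMI, and cells with neither. In a whole-library sum, fewer cells of a type and less RNA per cell cannot be told apart.

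The shares of cells with Xist or Y-linked UMIs also differed between the libraries. Cells with an Xist UMI and no UMI of the Y-linked genes Ddx3y, Eif2s3y, Kdm5d and Uty made up 34.9% of submandibular and 52.8% of parotid epithelial cells. Cells with a Y-linked UMI and no Xist UMI made up 35.7% and 22.6%. Between these 2 kinds of cell, 3 of 7169 measured genes, sex-linked ones aside, were at least 2-fold apart in the submandibular library. In the parotid library 63 of 7387 were, 43 of them higher with Xist. Cells with Y-linked UMIs only numbered 1242 in submandibular and 333 in parotid. The parotid ratios thus carry more counting error, and the part this plays in the 2 counts was not tested. Values in both kinds of parotid cell are given beside several results below.

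Most genes were close to even. A gene counted as measured when the mean of its 2 CPM values was at least 10, which 7325 genes reached. Of these, 6398 (87.3%) lay within 1.5-fold, and the median log2 ratio, submandibular over parotid, was -0.02. At 2-fold or more, 160 genes (2.18%) were higher in submandibular and 209 (2.85%) in parotid epithelium, and for all 369 the counting interval of the ratio lay beyond 1.5-fold. At 1.5-fold or more the counts were 378 (5.16%) and 549 (7.49%), of which 340 and 492 were moderate differences of up to 5-fold. Among the 4535 genes with a mean of 10 to 50 CPM, 2.73% and 3.48% were 2-fold higher in the submandibular and the parotid library. Scaling by TMM, which moved the median log2 ratio by 0.09, gave 185 and 175 genes, and the median-of-ratios scaling, which moved it by 0.10, gave 190 and 171, so which gland has more such genes depends on the scaling.

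**Figure D1:**
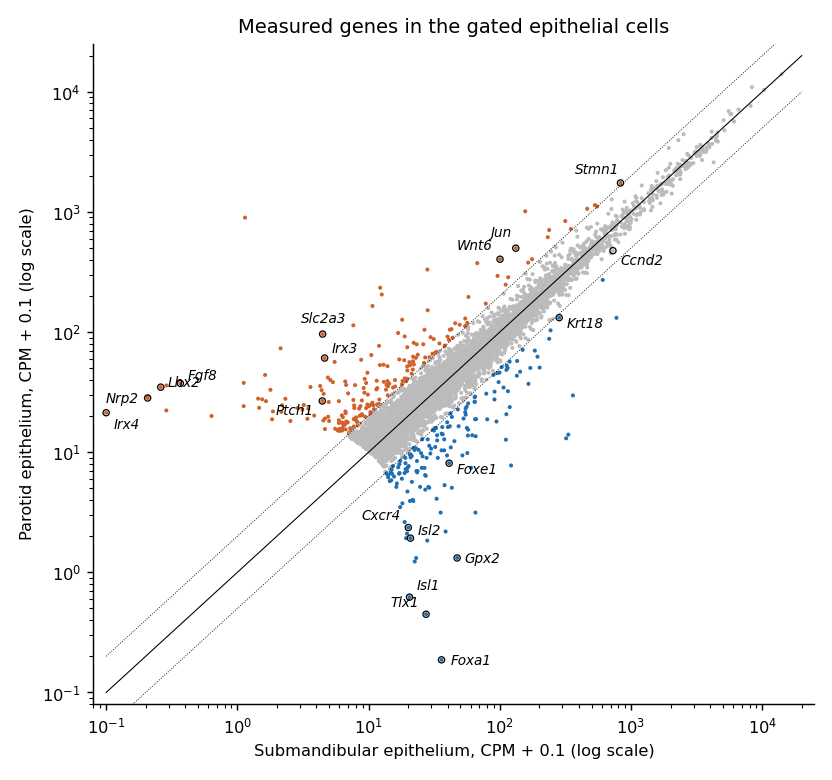
Each point is 1 of 7325 measured genes, with its summed level in submandibular cells (x) and parotid cells (y) in CPM plus 0.1, both on log axes. The solid line marks equal levels, dotted lines mark 2-fold, blue and orange points lie beyond them, and named genes are ringed. Foxa1, Tlx1 and Isl1 sit near the floor of the parotid axis, and Irx4, Nrp2 and Lhx2 near that of the submandibular axis.

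Of 226 measured transcription factors, 21 (9.29%) led by 2-fold or more in submandibular and 29 (12.8%) in parotid epithelium, beside 2.18% and 2.85% of all measured genes. The median log2 ratio of the list was -0.07. The difference between these shares was not tested, here and for the lists below. The forkhead family had 3 of 9 measured members higher in submandibular and none in parotid. The homeobox list had 4 and 6 of 26, the basic leucine zipper (bZIP) list 2 and 8 of 27, and none of 14 nuclear receptors reached 2-fold.

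**Figure D2:**
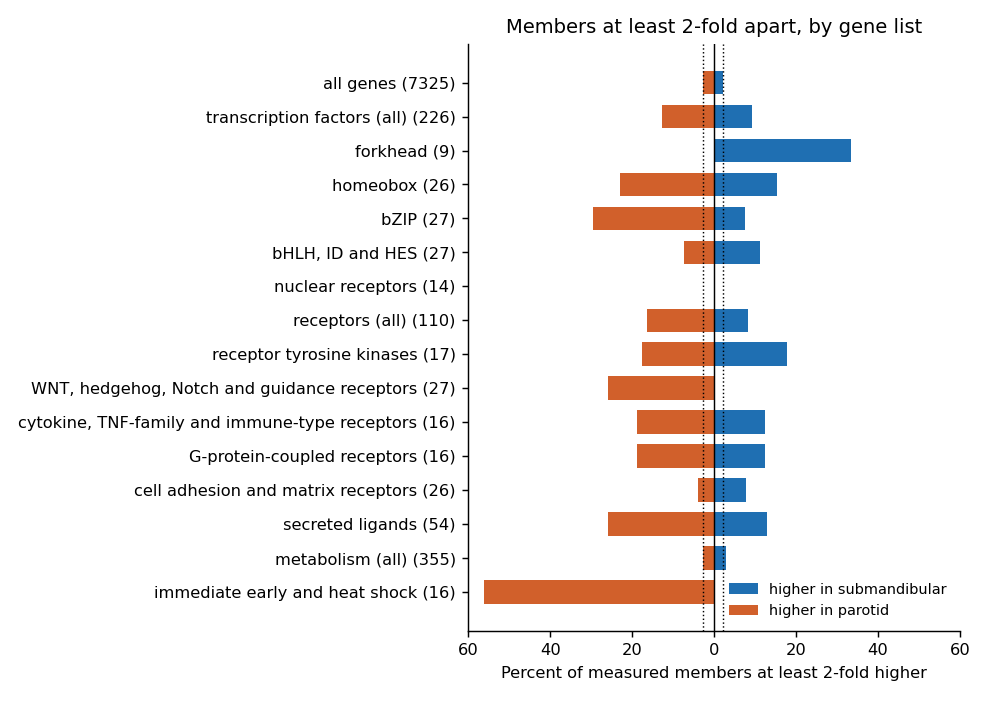
Bars give the percent of measured members of each gene list (number measured in brackets) at least 2-fold higher in submandibular (blue, to the right) or parotid epithelium (orange, to the left), and dotted lines the percent over all genes, 2.18 and 2.85. Transcription factor, receptor and ligand lists extend past the lines in 1 or both directions, while the 355 metabolic genes lie at them with 2.82% each way.

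Foxa1, a pioneer forkhead factor of endoderm-derived organs, was the gene with the highest ratio of all. It was at 35.9 CPM (34.0 to 37.8) in submandibular cells, from 1339 UMIs, and at 0.087 CPM in parotid cells, from 1 UMI. The ratio was 412, with a counting interval of 73.9 to 16303. Its level was 36.4, 40.4 and 34.6 CPM in submandibular cells with Sox10, with Krt5 only and with neither, so it did not follow the end bud marker. No Foxa1 UMI was found among the 23597497 and 25155372 UMIs of the mesenchymal cells, which allows 0.127 and 0.119 CPM.

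Tlx1, a homeobox factor of branchial arch and spleen, had the next ratio. Its levels were 27.3 CPM (25.7 to 29.0) in submandibular and 0.348 CPM (0.0947 to 0.89) in parotid cells. Isl1, a LIM-homeobox factor of the anterior facial ectoderm and pharyngeal region, was at 20.4 and 0.522 CPM, a 39.1-fold ratio. Its relative Isl2 was at 20.8 and 1.83 CPM, 11.4-fold. Both Isl1 and Isl2 were lower in all 3 parotid strata than in any submandibular one. Foxe1, a forkhead factor of pharyngeal and oral endoderm, was at 41.0 and 7.998 CPM, 5.13-fold higher in submandibular, and its submandibular level was 85.0 CPM in Krt5 cells against 26.6 CPM in Sox10 cells. In parotid cells with Xist and with Y-linked UMIs Foxe1 was at 4.98 and 10.8 CPM.

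Several smaller submandibular differences shrank within Sox10 cells. Pax9, a paired-box factor of pharyngeal pouches, teeth and taste papillae, was at 64.2 and 26.3 CPM over all cells and at 68.3 and 63.8 CPM within Sox10 cells. It was at 17.8 CPM in Xist and 37.4 CPM in Y-linked parotid cells. Foxc1, a forkhead factor, was at 54.9 and 20.4 CPM over all cells and at 59.9 and 53.6 CPM within them. Nfia, a nuclear factor I protein, went from 78.8 and 30.6 CPM to 80.4 and 78.5 CPM. In parotid Krt5 cells these 3 genes were low, at 10.8, 9.57 and 11.7 CPM in the same order. Cells with Krt5 and no Sox10 UMI made up 13.6% of submandibular and 66.0% of parotid cells, and the part this plays in the 3 ratios was not tested.

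Other factors kept a difference within Sox10 cells. Tbx3, a T-box repressor, was at 17.3 and 3.39 CPM over all cells and at 21.1 and 2.82 CPM within them. Irx1 was at 33.6 and 8.87 CPM over all cells and 46.4 and 21.5 CPM within them. Nkx2-3, a homeobox factor of pharyngeal endoderm and gut, was at 23.9 and 10.3 CPM over all cells and 11.6 and 0.564 CPM within them. The bHLH inhibitor Id4 was at 23.1 and 6.87 CPM over all cells and 28.5 and 3.39 CPM within them. The parotid Sox10 cells numbered 184 and held 1.77e+06 UMIs, so the lowest of these levels rest on few UMIs. Within Krt5 cells Id4 was closer to even, at 10.5 and 8.37 CPM. So were Tbx3, at 8.03 and 4.39 CPM, and Irx1, at 7.79 and 4.12 CPM. Nkx2-3 was further apart there than over all cells, at 43.1 and 13.2 CPM. The Notch target Hey1 was at 64.7 and 18.7 CPM over all cells, 3.46-fold apart, and 1.73-fold apart within Sox10 cells. The bZIP factor Cebpb was at 185 and 70.0 CPM and was 2.33- to 2.75-fold higher in submandibular in each of the 3 strata.

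Etv4, Etv5 and Sox9, factors known from end buds, were higher in submandibular over all cells and came close, or turned, within Sox10 cells. The FGF-responsive ETS factors Etv4 and Etv5 were at 112 and 48.3 CPM and at 108 and 67.0 CPM, and Sox9 at 110 and 73.1 CPM. Within Sox10 cells Etv4 was at 153 and 132 CPM, Etv5 at 136 and 162 CPM, and Sox9 at 128 and 139 CPM, so the order turned for the latter pair. Of the 6 measured genes of the end bud list, 1 reached 2-fold each way, and Fgfr2, given below, was the one on the parotid side. Six2 was at 40.1 and 16.1 CPM over all cells and 44.6 and 33.9 CPM within Sox10 cells. Outside that group, the bZIP factor Hlf, at 18.7 and 2.52 CPM, and the zinc finger factor Plagl1, at 23.3 and 8.35 CPM, stayed 6.47- and 4.13-fold higher in submandibular within Sox10 cells.

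**Figure D3:**
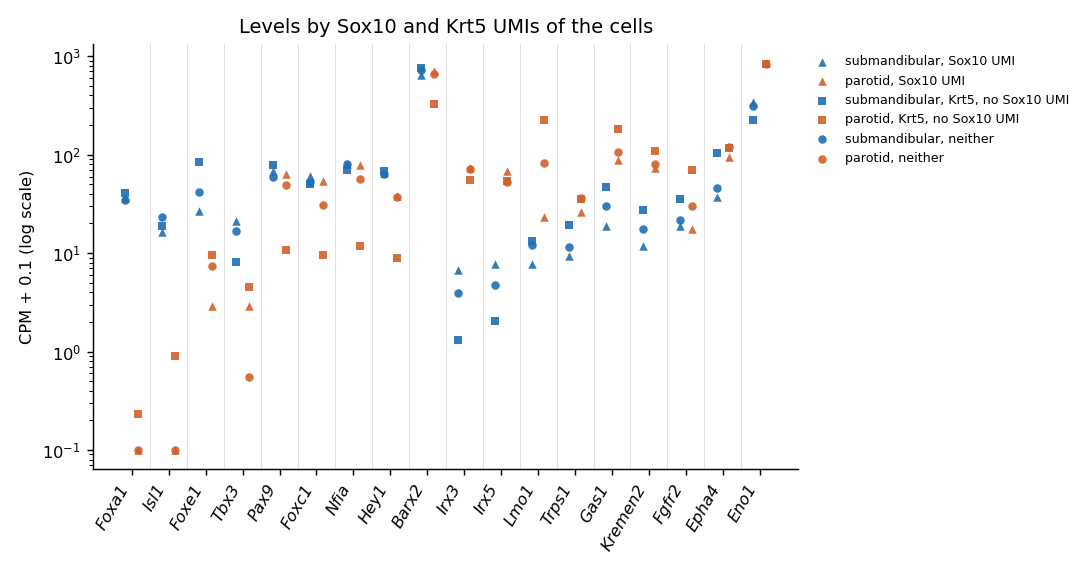
Levels of 18 genes in CPM plus 0.1 on a log axis, in submandibular (blue) and parotid cells (orange), split into cells with a Sox10 UMI (triangles), with Krt5 and no Sox10 UMI (squares) and with neither (circles). Foxa1, Isl1, Irx3 and Irx5 keep the glands apart in all 3 splits, while Pax9, Foxc1, Nfia and Barx2 come close in the triangles, with parotid Krt5 cells below.

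The Iroquois genes divided between the glands. On chromosome 13, Irx1 was higher in submandibular and Irx2 and Irx4 in parotid, while Irx3 and Irx5 on chromosome 8 were both higher in parotid. Irx4 had no UMI in submandibular and 244 UMIs in parotid cells (21.2 CPM, 18.6 to 24.1), which is 264-fold higher against a floor of 3 UMIs over the library. The lower end of the counting interval was 213-fold. Irx3 was at 4.53 and 60.7 CPM and Irx5 at 5.41 and 56.3 CPM, 13.4- and 10.4-fold higher in parotid. Both were also higher in every parotid stratum, with Irx3 at 6.69 and 73.9 CPM within Sox10 cells. Irx2, the neighbour of Irx4 on chromosome 13, was at 26.9 and 61.4 CPM over all cells but at 26.4 and 25.04 CPM in submandibular and parotid cells with Y-linked UMIs, with 89.0 CPM in parotid cells with Xist. The other genes with the lowest ratios, the chemokine Cxcl14 and the HoxA-cluster non-coding RNA Hotairm1, were 3.12-fold and 2.23-fold higher in parotid cells with Xist than in those with Y-linked UMIs, and Irx4 (29.4 and 8.60 CPM) 3.42-fold. In mesenchymal cells Irx3 and Irx5 were likewise higher on the parotid side, at 2.59 and 26.7 CPM for Irx3 and 1.19 and 23.0 CPM for Irx5.

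A few of the genes with the widest gaps are shown by the 250 bases before their RefSeq start (GRCm38.p6, read in the direction of the gene), since each was near 0 in 1 of the glands. The Foxa1 window is chr12:57546112-57546361 (minus strand), that of Isl1 chr13:116309689-116309938 (minus strand) and that of Irx4 chr13:73260247-73260496 (plus strand). In the GENCODE annotation Foxa1 spans chr12:57540628-57546916, so a longer transcript starts upstream of the window shown. Capitals mark the forkhead motif TGTTTAC or its reverse complement.
Foxa1: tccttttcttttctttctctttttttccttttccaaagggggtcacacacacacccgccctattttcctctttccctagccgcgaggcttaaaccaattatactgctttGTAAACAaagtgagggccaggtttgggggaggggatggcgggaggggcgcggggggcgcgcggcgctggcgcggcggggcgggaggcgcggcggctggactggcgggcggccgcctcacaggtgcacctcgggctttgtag
Isl1: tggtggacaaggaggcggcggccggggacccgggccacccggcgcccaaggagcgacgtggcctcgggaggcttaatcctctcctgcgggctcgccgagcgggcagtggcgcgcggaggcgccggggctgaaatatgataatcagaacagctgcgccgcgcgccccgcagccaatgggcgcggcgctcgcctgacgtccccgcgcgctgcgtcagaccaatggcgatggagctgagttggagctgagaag
Irx4: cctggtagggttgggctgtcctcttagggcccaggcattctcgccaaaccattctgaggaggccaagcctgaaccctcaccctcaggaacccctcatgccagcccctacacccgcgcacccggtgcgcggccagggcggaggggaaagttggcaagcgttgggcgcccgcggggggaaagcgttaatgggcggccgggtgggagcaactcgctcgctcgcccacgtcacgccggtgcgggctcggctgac
The Foxa1 window holds 1 forkhead match, on the opposite strand, and the windows of Isl1 and Irx4 hold none. None of the 3 holds the palindromic Iroquois motif ACANNTGT. Both motifs were sought on both strands, and no match of one overlaps a match of the other in these 3 windows. TGTTTAC occurs in 3.17% of all 32851 promoter windows of this length and in 2.07% of those of measured genes. It occurs in 3.73% of windows of genes 2-fold higher in submandibular (6 of 161) and in 3.95% of those higher in parotid (9 of 228). The 161 windows belong to 119 genes and the 228 to 151, so a gene can have more than 1 window. ACANNTGT occurs in 6.31% of all windows, 2.80% of those of measured genes, 7.45% on the submandibular side (12 of 161) and 3.07% on the parotid side (7 of 228). These are matches of letters and say nothing of binding.

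Lhx2, a LIM-homeobox factor of hair and eye primordia, was at 0.161 CPM in submandibular and 34.7 CPM (31.4 to 38.3) in parotid cells. Of its 399 parotid UMIs, 364 lay in the 777 cells with Xist only (58.5 CPM) and none in the 333 cells with Y-linked UMIs only, 52.2-fold lower against a floor of 3 UMIs. Within cells with Y-linked UMIs, both glands were at or under that floor. Lmo1, a LIM-only cofactor, was at 10.6 and 165 CPM, with 237 CPM in Xist and 78.9 CPM in Y-linked parotid cells.

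Vgll3, a TEAD cofactor, was at 1.55 and 26.5 CPM, and Trps1, a GATA-type repressor, at 11.5 and 34.1 CPM. The proto-oncogene Mycn was at 4.28 and 32.8 CPM and the AP-2 factor Tfap2c at 21.6 and 56.1 CPM. Lef1, a WNT effector, was at 2.06 and 21.6 CPM. Each of these 5 was higher in all 3 parotid strata and in both kinds of parotid cell. Trps1 was at 43.2 CPM in Xist and 21.7 CPM in Y-linked parotid cells. In mesenchymal cells all 5 were likewise higher on the parotid side. There Vgll3 was at 2.50 and 86.5 CPM, Lef1 at 7.03 and 64.3 CPM and Trps1 at 7.97 and 60.9 CPM. Tfap2c was at 1.53 and 6.20 CPM and Mycn at 11.95 and 15.03 CPM. The part that mesenchymal RNA plays in the 5 epithelial ratios was not tested.

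The bZIP genes on the parotid side were mostly immediate early genes, which dissociation can induce. Jun was at 132 and 499 CPM and Jund at 238 and 706 CPM. Fos was at 176 and 404 CPM and Junb at 164 and 378 CPM. Each of these genes was higher in parotid within Sox10 cells, by 3.65- to 4.91-fold, and in cells with neither marker, by 1.59- to 2.84-fold. Within Krt5 cells Jun was 1.56-fold and Jund 1.65-fold higher in parotid, while Junb was 1.18-fold and Fos 1.11-fold higher in submandibular. Over a list of immediate early and heat shock genes, 9 of 16 measured members were at least 2-fold higher in parotid and none in submandibular, beside 2.85% and 2.18% of all measured genes, with a median log2 ratio of -1.04. The whole list summed to 3943 and 5340 CPM. The part that handling of the tissue plays in these genes was not tested.

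Of 110 measured receptor genes, 9 (8.18%) stood 2-fold or more above parotid in submandibular epithelium and 18 (16.4%) the reverse, beside 2.18% and 2.85% of all genes. WNT, hedgehog, Notch and guidance receptors gave 7 of 27 on the parotid side and none on the submandibular side. Receptor tyrosine kinases gave 3 of 17 each way.

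Ptch1, Gas1 and Boc, which act at the reception of hedgehog signals, were each higher in parotid over all cells, while Smo was even at 48.4 and 48.9 CPM. Ptch1, the hedgehog receptor and a direct target of the pathway, was at 4.34 and 26.6 CPM. It was at 41.9 CPM in Xist and 5.23 CPM in Y-linked parotid cells, so within the latter it was close to the submandibular level of 4.08 CPM. Gas1, a hedgehog co-receptor, was at 28.1 CPM (26.4 to 29.9) and 152 CPM (145 to 159), 5.398-fold higher in parotid, and was at 168 and 145 CPM in the 2 kinds of parotid cell. Boc, a further co-receptor, was at 9.48 and 23.2 CPM. Gas1 is abundant in mesenchymal cells, at 299.99 and 365 CPM.

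Kremen2, Znrf3 and Ryk, which act on WNT reception, were higher in parotid over all cells. The WNT receptor Fzd9 was higher in submandibular over all cells, at 15.7 and 10.3 CPM, and within Krt5 cells, at 2.19 and 1.33 CPM. Its order turned within Sox10 cells, at 25.7 and 31.04 CPM, and in cells with neither marker, at 12.02 and 24.001 CPM. Kremen2, a receptor for the WNT inhibitor DKK1, was at 16.7 CPM (15.4 to 18.1) and 98.1 CPM (92.5 to 104.0), 5.88-fold higher in parotid. Kremen2 was at 72.8 to 109 CPM over the parotid strata and at 11.8 to 27.3 CPM over the submandibular ones, without overlap, and at 98.8 and 99.4 CPM in parotid cells with Xist and with Y-linked UMIs. Znrf3, a ligase that removes Frizzled receptors, was at 13.0 and 38.4 CPM. Ryk, a WNT-binding kinase-like receptor, was at 30.6 and 65.8 CPM but at 32.7 and 29.4 CPM within Sox10 cells.

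Nrp2, a semaphorin and VEGF co-receptor, was at 0.107 CPM (4 UMIs) in submandibular and 28.2 CPM (25.2 to 31.4) in parotid cells. As with Lhx2, the cells with Xist carried it, at 45.0 CPM against 1.50 CPM (4 UMIs) in parotid cells with Y-linked UMIs. In mesenchymal cells Nrp2 was higher on the submandibular side, at 292 and 59.4 CPM. The guidance ligand Sema3a, which acts mainly through a related neuropilin, was at 8.68 and 58.7 CPM, and at 66.2 and 56.4 CPM in the 2 kinds of parotid cell. Its 6.76-fold ratio was 1.85-fold within Sox10 cells and 2.38-fold in cells with neither marker.

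Growth factor receptors went both ways. Fgfr2, the main epithelial FGF receptor of branching glands, was at 22.04 and 53.6 CPM, 2.43-fold higher in parotid, yet at 18.9 and 17.5 CPM within Sox10 cells. The parotid Krt5 cells were highest, at 69.0 CPM. Fgfr1 was 1.80-fold higher in submandibular, at 56.0 and 31.1 CPM, and 1.17- to 1.248-fold higher within the strata. Igf2r, the mannose-6-phosphate and IGF2 clearance receptor, was at 55.8 and 23.8 CPM. The ephrin receptors Epha4 and Epha7 leaned apart: Epha4 was at 49.4 and 115 CPM, and Epha7 at 18.7 and 6.61 CPM. Within Krt5 cells Epha4 was near even, at 104 and 118 CPM, and Epha7 was at 12.4 and 7.04 CPM. Tnfrsf19, a TNF-family receptor of ectodermal organs, was at 9.69 and 45.7 CPM, and the growth hormone receptor Ghr at 4.42 and 18.3 CPM.

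The chemokine receptors Cxcr4 and Ackr3, which bind the same ligand Cxcl12, leaned in opposite directions. Cxcr4 was at 20.0 CPM (18.6 to 21.5) in submandibular and 2.26 CPM (1.48 to 3.31) in parotid cells. Its ratio of 8.84 over all cells was 6.89 within Sox10 cells, 3.996 within Krt5 cells and 5.04 in cells with neither. Ackr3, a scavenging receptor, was at 4.45 and 30.5 CPM. It was 6.86-fold higher in parotid over all cells, and 7.26-, 3.61- and 2.60-fold in the same 3 strata.

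Matrix and lipid receptors gave smaller numbers. Itga9, an integrin subunit, was at 23.5 and 6.87 CPM, a 3.42-fold ratio that was 1.71-fold within Sox10 cells and 1.48-fold in cells with neither marker. It was at 4.50 and 9.34 CPM in parotid cells with Xist and with Y-linked UMIs. Bcam, a laminin receptor, was at 78.0 and 172 CPM, but only 1.28- to 1.66-fold apart within strata in the same direction. Lpar1, a lysophosphatidic acid receptor, was at 43.0 and 19.6 CPM. Ngfr, the low-affinity neurotrophin receptor, was at 63.9 and 33.7 CPM over all cells but lower in submandibular within Sox10 cells, at 99.9 and 133 CPM.

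Of 54 measured secreted ligands, 7 (13.0%) had a 2-fold or wider lead in submandibular and 14 (25.9%) in parotid epithelium, beside 2.18% and 2.85% of all genes. Fgf8, an early facial and oral ectoderm signal, was at 0.268 and 37.3 CPM (33.9 to 41.0) and did not follow the sex split, at 36.6 and 43.4 CPM in parotid cells with Xist and with Y-linked UMIs. Among WNT ligands, Wnt6 was at 100.3 and 404 CPM, Wnt7b at 17.9 and 127 CPM and Wnt3 at 2.09 and 24.5 CPM. Wnt6 was at 401 and 404 CPM in the 2 kinds of parotid cell. All 3 were higher in each parotid stratum, by smaller ratios than over all cells. Within Sox10 cells, Krt5 cells and cells with neither, Wnt7b was 2.58-, 3.20- and 2.58-fold higher in parotid (7.07-fold over all cells) and Wnt6 3.14-, 2.34- and 1.99-fold (4.03-fold over all cells). Wnt3 was 10.9-, 5.73- and 4.43-fold higher (11.7-fold over all cells).

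On the submandibular side, Tgfb2 was at 33.2 and 12.4 CPM and Tgfb1 at 21.2 and 9.21 CPM, and the WNT inhibitor Sfrp1 at 149 and 71.0 CPM. Sfrp1 was 1.12-fold apart within Sox10 cells. Tgfb1 was even within Krt5 cells, at 7.30 and 7.44 CPM, and Tgfb2 was at 15.7 CPM in Xist and 4.86 CPM in Y-linked parotid cells.

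Metabolic genes lay near the share of all genes. Of 355 measured, 10 (2.82%) were at least 2-fold higher in each direction, beside 2.18% and 2.85% of all genes, and 302 lay within 1.5-fold. All 30 measured genes of the citrate cycle and pyruvate entry lay within 1.5-fold, as did 73 of 75 nuclear genes of the respiratory chain and ATP synthase. In the list of pentose phosphate and nucleotide synthesis genes, 34 of 36 did. The share over all measured genes was 87.3%, and the differences from it were not tested.

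In the glycolysis list, of 19 measured genes, 6 were at least 1.5-fold higher in parotid and none in submandibular (7.49% and 5.16% of all genes), and the median log2 ratio was -0.39. Eno1, enolase, was at 315 and 840 CPM, 2.66-fold higher, and was 2.46- to 3.68-fold higher in parotid across the 3 strata. The transporter Slc2a3 had the widest gap, at 4.36 and 96.1 CPM, and was at 5.21 and 8.47 CPM within Sox10 cells. Aldoa was at 461 and 740 CPM, Ldhb at 268 and 506 CPM and Pgk1 at 15.4 and 28.6 CPM. The glucose transporter Slc2a1 was at 57.2 and 105 CPM. It was at 127 CPM in Xist and 81.1 CPM in Y-linked parotid cells. Eno1, Aldoa and Pgk1 have close copies in the genome, and counting of reads shared with those copies could change their levels.

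**Figure D4:**
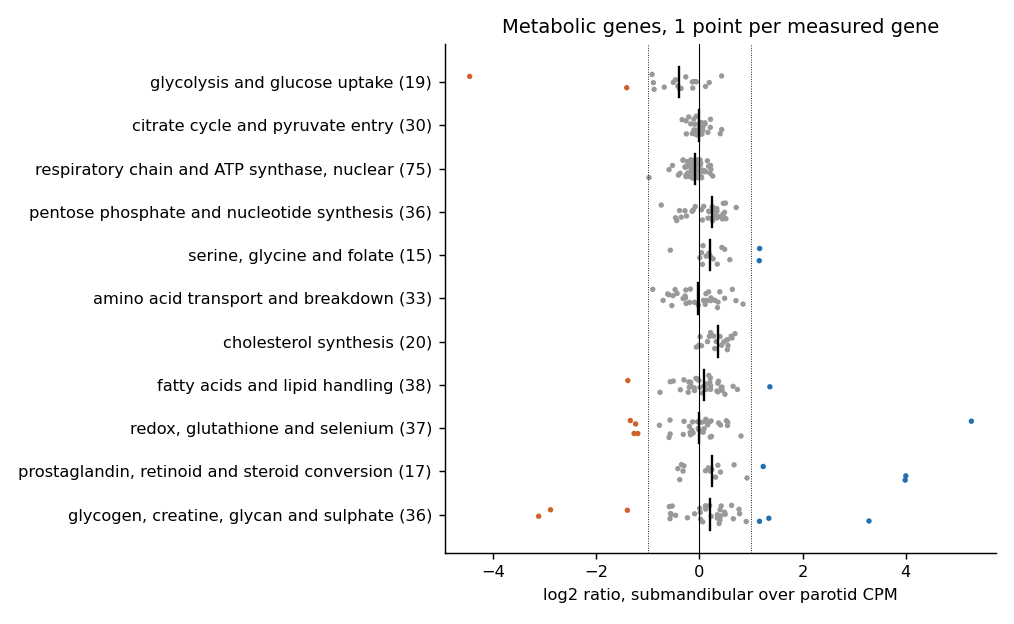
Each point is a measured gene of 1 of 11 metabolic lists, placed by its log2 ratio of submandibular over parotid CPM, with the list's median as a black bar, dotted lines at 2-fold and points beyond them in blue or orange. The citrate cycle and respiratory chain lists are narrow around 0, glycolysis has its median at -0.39 and cholesterol synthesis at 0.36.

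Of 20 cholesterol synthesis genes, 3 led in submandibular by 1.5-fold or more and none in parotid (5.16% and 7.49% of all genes), with a median log2 ratio of 0.36. Sqle, squalene epoxidase, was at 134 and 82.8 CPM. In the serine, glycine and folate list 2 of 15 reached 2-fold on the submandibular side (2.18% of all genes) and none on the parotid side (2.85%): Psat1, of serine synthesis, at 64.7 and 28.9 CPM, and the mitochondrial folate enzyme Mthfd2 at 64.2 and 28.6 CPM. Within Krt5 cells Psat1 was even, at 22.2 and 23.0 CPM, and both genes were highest in submandibular Sox10 cells, at 94.3 and 83.5 CPM.

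Of 37 measured redox genes, 1 reached 2-fold on the submandibular side and 4 on the parotid side, beside 2.18% and 2.85% of all genes. Gpx2, a glutathione peroxidase of epithelia, was at 47.2 CPM (45.0 to 49.4) and 1.22 CPM (0.665 to 2.04), 38.8-fold higher in submandibular. Gpx2 was 15.5- to 34.2-fold higher in submandibular in each stratum. The glutathione reductase Gsr was at 101 and 57.8 CPM. Txnip, a thioredoxin-binding protein, was at 13.9 and 35.3 CPM, and the selenoprotein Sepw1 at 463 and 1062 CPM. The aldehyde dehydrogenase Aldh1a7 was at 27.9 and 1.74 CPM. The retinoic acid-binding protein Crabp2 was at 238 and 126 CPM but 150 and 156 CPM within Sox10 cells, and 88.7 CPM in Xist against 175 CPM in Y-linked parotid cells.

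Other single genes were higher in parotid. The brain-type creatine kinase Ckb was at 4.79 and 41.7 CPM, with 54.3 CPM in Xist and 22.1 CPM in Y-linked parotid cells. The sulphotransferase Chst2 was at 2.44 and 18.1 CPM. Car8, a protein related to carbonic anhydrases, went the other way, at 19.5 and 1.999 CPM.

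Of 684 genes with a mean of at least 200 CPM, leaving out mitochondrial, ribosomal protein, haemoglobin and unnamed genes, 8 (1.17%) were 1.5- to 5-fold higher in submandibular and 33 (4.82%) in parotid, beside 4.64% and 6.72% of all measured genes. Beyond 5-fold lay, among others, Cxcl14 (1.04 and 896 CPM) and Krt14. Tmsb10, an actin-binding thymosin, was at 1937 and 3411 CPM, and Stmn1, a microtubule regulator, at 831 and 1742 CPM. The nucleosome-binding protein Hmgn2 was at 714 and 1270 CPM. These 3 were also higher on the parotid side in mesenchymal cells, at 2277 and 4365 CPM for Tmsb10, 751 and 1489 CPM for Stmn1 and 668 and 948 CPM for Hmgn2. Anxa2, a membrane-binding annexin, was at 232 and 616 CPM, and within Krt5 cells at 658 and 823 CPM.

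On the submandibular side the abundant genes included Lyar, Nt5dc2 and Tuba1c, at 335 and 203 CPM, 286 and 165 CPM, and 278 and 173 CPM. Ccnd2, a G1 cyclin, was at 728 and 476 CPM and was higher in submandibular in all 3 strata. Barx2, a homeobox factor of oral and glandular epithelium, was at 702 and 453 CPM over all cells but at 646 and 708 CPM within Sox10 cells. The matrix protein gene Sparc was at 322 and 203 CPM. The keratin gene Krt18 was at 283 and 132 CPM and was highest in submandibular Krt5 cells, at 739 CPM against 117 CPM in parotid Krt5 cells.

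Of 96 genes chosen for the text, Sox10 and Krt5 left out, the ratio moved toward or past even by over 1.5 times in at least 1 of the 3 strata for 70, within Sox10 cells for 38, within Krt5 cells for 30 and in cells with neither marker for 43. Of the 160 genes 2-fold higher in submandibular, 148 were higher there in each of the 3 strata and 66 were 2-fold higher in each. Of the 209 on the parotid side, the numbers were 182 and 75. Among cells holding Y-linked and no Xist UMIs, 126 of the 160 and 157 of the 209 were at least 2-fold apart. In those cells 162 and 217 of 7308 measured genes were 2-fold apart in all. The 160 and 209 were chosen from cells that include the strata and these cells, so the overlaps are partly built in. Of the 63 genes apart between the 2 kinds of parotid cell, 21 were among the 209, which are 2.85% of all measured genes. Of those 21, 19 were higher in cells with Xist. The 63 came from 7387 genes measured in the parotid library alone, which genes high in parotid enter more easily, so this overlap too is partly built in.

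**Figure D5:**
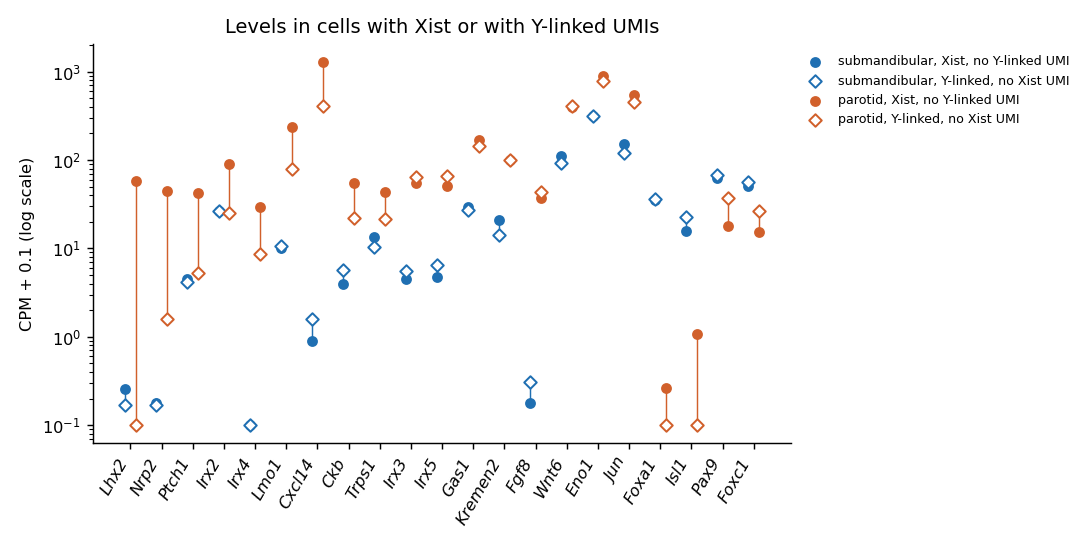
Levels of 21 genes in CPM plus 0.1 on a log axis, in cells with Xist and no Y-linked UMI (filled circles) and cells with Y-linked and no Xist UMI (open diamonds) of the submandibular (blue) and parotid library (orange). Lhx2, Nrp2, Ptch1 and Irx2 are far apart within the parotid library, while Irx3, Irx5, Gas1, Kremen2, Fgf8 and Wnt6 are close.

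The same genes were read in mesenchymal cells. Of the submandibular genes, 89 of 160 were measured in mesenchymal cells, and 26 of them were at least 2-fold higher on the submandibular side there and 9 on the parotid side. Of the parotid genes, 138 of 209 were measured, 25 of them 2-fold the same way and 12 the other way. Over all 6709 genes measured in both tissues, 2.67% were at least 2-fold higher on the submandibular and 1.91% on the parotid side of the mesenchyme. The share of Xist-only cells differs between the mesenchyme libraries as well, at 54.6% in submandibular and 1.37% in parotid.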

How the data were processed

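Single-cell 3' RNA-seq was made from 4 libraries, 1 for each gland and tissue. The deposited values are raw counts of UMIs per gene and barcode, made by the authors with Cell Ranger 2.1.1 on mm10, per the submitters' processing notes, and were not normalized. The 27998 genes carry identical names in all libraries, and 27645 were matched by identifier to a GRCm38 annotation for coordinates.

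Barcodes were gated as the report states, UMIs were summed per library, and CPM with exact Poisson and ratio intervals with the exact conditional binomial (Clopper-Pearson) method were computed in Python 3.11.15 (numpy 2.4.6, scipy 1.17.1, pandas 2.3.3). A ratio against 0 UMIs used a floor of 3 UMIs over the library. The sums and intervals were tested on simulated data. No doublet caller was run. As an alternative, the 5% of cells with the most UMIs in each library were left out. TMM factors came from edgeR 4.0.16 in R 4.3.3, used for scaling only. Mesenchymal cells for reference had no Epcam and at least 1 Pdgfra or Col3a1 UMI. Between the epithelium libraries, 9 gated barcodes were shared.

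Barcodes just outside the gate, with 0 Epcam UMIs but otherwise passing, numbered 116 in submandibular and 261 in parotid (median 5210.5 and 5703 UMIs), and those just inside, with 1 Epcam UMI, 250 and 307 (5739 and 6321 UMIs). Genes were named by rule: up to 6 members each way of each list among those at least 1.5-fold apart, up to 12 each way among abundant genes 1.5- to 5-fold apart, and the 3 highest and 3 lowest ratios. Not every gene so chosen is printed, and some are not reported here. Fam150b was taken for its contrast with mesenchyme, and Sox10, Krt5 and Krt14 as markers. The gate, the lists and the rule were chosen with earlier results of these data known, and 4 of 20 alternatives, among them the Xist and Y-linked split, were added after the data had been seen. Nothing in the labels says that the 2 glands came from separate litters.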

Additional observations from a re-analysis of the deposited data

Results flagged for a closer look

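For 5 of the genes reported here, all with a mean of at least 10 CPM in mesenchymal cells too, the difference between glands ran one way in epithelial cells and the opposite way in mesenchymal cells, by at least 2-fold in each. These contrasts were not tested, since each rests on 1 library a group. Values are log2 ratios of submandibular over parotid CPM. Among transcription factors, Tbx3 was at 2.35 in epithelium and -1.12 in mesenchyme, and Six2 at 1.32 and -2.38. The co-receptor Nrp2 was at -8.04 in epithelium and 2.30 in mesenchyme. The kinase ligand Fam150b was at 3.61 and -3.78. The redox regulator Txnip was at -1.34 and 1.47. In CPM, Fam150b was at 361 and 29.6 in submandibular and parotid epithelial cells and at 3.56 and 48.7 in mesenchymal cells. The mesenchyme libraries differed in the share of cells with Xist only (54.6% and 1.37%), and the part this plays was not tested.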

How the results depend on the processing

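No paired analysis was possible because each group had 1 library. The numbers of 2-fold genes on the submandibular and on the parotid side moved past 1.5 times with the floor on level: a mean of at least 50 CPM gave 36 and 51, and of at least 2 CPM 328 and 595. Within cells with Krt5 and no Sox10 UMI, an alternative chosen after seeing the data, the submandibular number was 250. All other settings left both numbers within 1.5 times, at 132 to 200 and 141 to 252. Leaving out the 5% of cells with the most UMIs gave 161 and 210. For single genes, 1741 of 1760 recomputed log2 ratios kept their direction and 19 turned, in 13 genes. Within Sox10 cells these were Barx2 (-0.13), Fgfr2 (0.11), Ryk (0.16), Ngfr (-0.41), Crabp2 (-0.057), Etv5 (-0.25), Sox9 (-0.12) and Sox10 itself (-0.50). In cells with neither marker they were Ngfr (-0.083), Etv5 (-0.17) and Sox9 (-0.19), and in Krt5 cells Junb (0.23), Fos (0.15), Tgfb1 (-0.027) and Psat1 (-0.054). With the 3 strata weighted equally they were Ngfr (-0.23), Etv5 (-0.15) and Sox10 (-0.50), and in cells with Y-linked and no Xist UMIs Irx2 (0.075). The Sox10 values stand in these counts but are no result, since the cells were chosen by a Sox10 UMI. The median depth of Sox10 cells was 13434 UMIs in submandibular and 8944 in parotid. Fzd9 is not in these counts, and its order also turned within Sox10 cells and in cells with neither marker. The cause was not tested. Counting depth sets the intervals, while variation between litters and dissections was not measured.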

Other observations

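Within the parotid library, cells with Xist only and cells with Y-linked UMIs only had like depth, at medians of 7596 and 7527 UMIs. A Sox10 UMI was found in 9.52% of the former and 17.7% of the latter, and a Krt5 UMI in 72.6% and 65.8%. Pax9 was at 17.8 CPM with Xist and 37.4 CPM with Y-linked UMIs, Foxc1 at 15.1 and 26.5 CPM, and Crabp2 at 88.7 and 175 CPM. In the submandibular library the Sox10 shares were 24.6% and 26.3%. The 10 or so pooled glands of a library are not told apart by any label.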
